A study of Homo sapiens with 6 samples.

Results

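SIX-family and EYA proteins work together as regulators of transcription, and their genes were followed here in human fibroblasts made to express the muscle factor MyoD. The 7 genes described are SIX2, SIX4, SIX5, EYA1, EYA2, EYA3 and EYA4, taken by name, with the counts of all their RefSeq transcripts summed per gene. They are 7 of 23548 gene symbols in the deposited count table. Cultured primary dermal fibroblasts of 1 line were sequenced as polyadenylated RNA in 3 groups of 2 libraries. Untreated fibroblasts, with no expressed gene named in their labels, were the control. WT-MyoD cells carried a tetracycline-inducible lentivirus for mouse wild-type MyoD. VP64-MyoD cells carried the same vector with the VP64 activation domain joined to the N-terminus of mouse MyoD. Both vectors also made the red fluorescent protein dsRed-Express2 from the same transcript. Transduced cells were kept under puromycin until all carried the vector. At confluence they received 3 µg/mL doxycycline, and RNA was taken on day 10. Whether the control cells received virus, puromycin or doxycycline is not stated, so MyoD cannot be told apart from vector, selection and doxycycline in a comparison with them. The libraries are biological duplicates of a single line, and the p-values cover only differences between cultures of that line.

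SIX-family proteins bind DNA through a homeodomain and an adjoining conserved domain. EYA proteins do not bind DNA themselves. They are recruited by SIX-family proteins as coactivators, and they carry a protein phosphatase domain. In developing muscle, SIX-family proteins act with EYA partners at MEF3 sites of genes such as MYOG, and DACH and Groucho (TLE) proteins act as corepressors of the same network.

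The library totals lay between 40997586 and 53804224 counts. Levels are CPM, counts scaled to library size with the TMM method. The mouse Myod1 transgene stood at 756.9 and 1014.4 CPM in the WT-MyoD libraries and at 115.5 and 96.6 CPM in the VP64-MyoD libraries. The untreated libraries held 5.09 and 1.04 CPM of it. Since the transgene level differed between the forms, the VP64 domain and the amount of transgene cannot be told apart in a comparison of the forms. The summed level of 6 skeletal muscle markers was 3.72 to 3.97 CPM in untreated cells, 273.0 to 297.7 CPM in WT-MyoD cells and 2503.2 to 2874.9 CPM with VP64-MyoD. All 8 fibroblast markers were present, with sums of 36027.9 to 38261.2, 23825.7 to 27195.2 and 26864.8 to 29282.4 CPM in the same order. The collagen genes COL1A1 and COL1A2, with means of 18927.0 and 13269.2 CPM in untreated cells, made up most of these sums. By gene, 4 of the 8 (DCN, LUM, THY1 and VIM) were called higher and 3 (COL1A1, COL1A2 and FAP) lower with WT-MyoD than untreated, and 2 higher and 5 lower with VP64-MyoD. Sums of the 4 epithelial, 4 endothelial and 4 melanocyte markers stayed at or under 1.94 CPM in every library. The sum of 4 blood markers was 67.3 to 68.7 CPM in untreated cells, 175.4 to 179.0 CPM with WT-MyoD and 44.5 to 46.5 CPM with VP64-MyoD. CD68, a lysosomal membrane protein, made up 66.0 and 67.5, 174.6 and 177.9, and 43.0 and 44.8 CPM of these sums, and the T cell marker CD3E was at 0. The part of these marker shifts in the results below was not tested.

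Of the 7 genes, 6 passed the filter on low counts and entered the edgeR quasi-likelihood fit over 15292 genes, and EYA4 did not. EYA1 passed only through its counts with VP64-MyoD, so that it is high there follows from the filter and its calls for VP64-MyoD support nothing. SIX2 was under the filter's cut in both untreated libraries (0.16 and 0.182 CPM) and passed through the MyoD libraries. That SIX2 is higher than untreated therefore follows from the filter, and its calls over untreated cells support nothing. With WT-MyoD, SIX2, SIX4 and EYA3 were higher than in untreated cells, SIX5 and EYA2 were lower, and EYA1 was not called. These are 5 calls among 6 tested genes, where 48.5% of all tested genes were called (26% higher and 22.5% lower). With VP64-MyoD, SIX5 was lower and SIX2, SIX4, EYA2 and EYA3 were higher than in untreated cells, as was EYA1. Of all genes, 63.6% were called in that comparison, 33.3% higher and 30.3% lower. Between the forms, SIX5 was lower and the same 4 genes and EYA1 were higher with VP64-MyoD, where 57.1% of all genes were called, 28.7% higher and 28.4% lower. The count of 2 lower with WT-MyoD was 1 without untreated replicate 1 and without WT-MyoD replicate 2, where EYA2 was not called. A call is a Benjamini-Hochberg adjusted p under 0.05 over all tested genes. Both comparisons with untreated cells use the same control libraries, so each is given with its own values. In these bulk libraries, a change in the number of cells that express a gene and a change in its RNA per cell cannot be told apart.

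**Figure D1:**
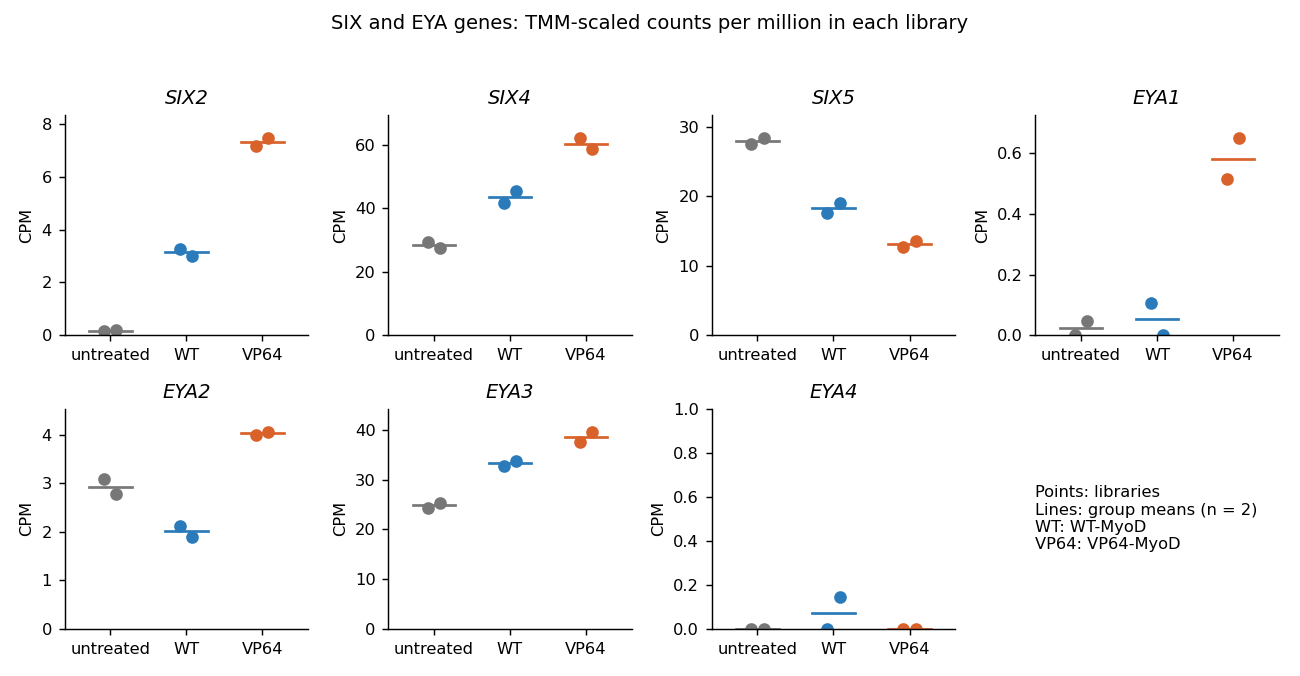
Level of each of the 7 genes in CPM (vertical axes from 0) in the 6 libraries, with points for libraries and lines for the means of the 3 groups. SIX2, SIX4 and EYA3 step up from untreated to WT-MyoD to VP64-MyoD, SIX5 steps down, EYA2 is lowest with WT-MyoD, and EYA1 and EYA4 stay under 1 CPM.

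SIX2, SIX4 and EYA3 were higher in all 3 comparisons, and their upstream sequences are shown because they share this direction. Of the 7 genes, 4 are in the RefSeq promoter table used here (GRCh38.p14), namely these 3 and EYA4. Each sequence is the 250 bases before the annotated start, read 5′ to 3′ on the strand of the gene. Capitals mark an E-box (CANNTG), a general motif of which MyoD binds some forms more than others.
SIX2, chr2:45009453-45009702, minus strand: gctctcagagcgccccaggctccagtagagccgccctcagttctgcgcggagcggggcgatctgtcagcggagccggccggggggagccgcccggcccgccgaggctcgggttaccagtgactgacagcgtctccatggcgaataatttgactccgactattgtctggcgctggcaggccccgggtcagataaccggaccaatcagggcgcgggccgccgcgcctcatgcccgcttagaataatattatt
SIX4, chr14:60724352-60724601, minus strand: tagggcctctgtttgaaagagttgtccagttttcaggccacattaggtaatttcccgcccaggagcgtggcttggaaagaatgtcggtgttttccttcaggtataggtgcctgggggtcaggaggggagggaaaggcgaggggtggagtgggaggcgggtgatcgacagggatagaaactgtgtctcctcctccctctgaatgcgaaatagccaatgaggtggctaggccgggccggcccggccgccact
EYA3, chr1:28088611-28088860, minus strand: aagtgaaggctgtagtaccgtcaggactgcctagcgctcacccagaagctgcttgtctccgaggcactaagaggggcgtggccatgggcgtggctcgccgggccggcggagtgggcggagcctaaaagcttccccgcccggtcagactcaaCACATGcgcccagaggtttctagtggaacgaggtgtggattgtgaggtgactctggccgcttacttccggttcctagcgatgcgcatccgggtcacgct
The EYA3 window holds 1 E-box, CACATG, at bases 99 to 94 before the start. The SIX2 and SIX4 windows hold no E-box, and none of the 3 holds CAGCTG or TCAGGTT. EYA4, which had almost no reads, has 1 E-box in its window, CAAGTG, at bases 55 to 50 before the start. Searched on both strands, CANNTG is found in 61.8% of 35116 RefSeq promoter windows of this length, CAGCTG (each match of which is also a CANNTG match) in 14% and TCAGGTT, the core of the MEF3 site, in 2.79%. These matches describe letters in the windows only. No binding was measured.

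Of the DNA-binding members, SIX2 is known as a keeper of nephron progenitors in the developing kidney. SIX2 had the largest fold changes over untreated cells among the 5 genes with more than 3 read pairs in every group. Its level (NM_016932) was 0.160 and 0.182 CPM in the untreated libraries, 3.28 and 3.01 CPM with WT-MyoD, and 7.18 and 7.45 CPM with VP64-MyoD. The untreated libraries were near 0, the VP64-MyoD libraries were highest, and no libraries of different groups overlapped. The untreated level rests on 4 read pairs in each library, against 93 and 62 in the WT-MyoD libraries and 167 and 195 in the VP64-MyoD libraries. Over untreated cells, SIX2 rose with WT-MyoD by a log2 fold change of 4.19 (edgeR SE 0.27). With VP64-MyoD it rose by 5.40 (edgeR SE 0.24). The filter kept SIX2 for its counts in the MyoD libraries, so no edgeR p is given for these folds. The low untreated count leaves a wide range for these folds. From the read pairs alone, the ratio was 18.6 (95% counting interval 9.21 to 43.8) for WT-MyoD and 43.0 (21.6 to 100.3) for VP64-MyoD. The difference between the forms rests on more reads, with SIX2 higher with VP64-MyoD by a log2 fold change of 1.21 (edgeR SE 0.15, adjusted p = 4.3e-06). The 95% interval of that value (0.9 to 1.53) overlapped the interval of EYA2 in the same comparison (0.63 to 1.37).

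SIX4, a SIX-family protein expressed in muscle precursors, had the highest level of the members per kilobase of transcript with either MyoD form. SIX4 (NM_017420) stood at 29.4 and 27.5 CPM in untreated cells, 41.6 and 45.4 CPM with WT-MyoD, and 62.1 and 58.7 CPM with VP64-MyoD. The groups formed 3 separate steps upward. Its log2 fold change over untreated was 0.61 (edgeR SE 0.07, adjusted p = 4.2e-06) with WT-MyoD. With VP64-MyoD it was 1.09 (edgeR SE 0.07, adjusted p = 3.1e-09), a 2.12-fold rise. The step from WT-MyoD to VP64-MyoD was 0.48 (edgeR SE 0.07, adjusted p = 3.9e-05).

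SIX5, whose gene lies beside DMPK at the myotonic dystrophy locus, was the only one of the 6 tested members that was lower in all 3 comparisons. SIX5 (NM_175875) stood at 27.5 and 28.3 CPM in untreated cells, 17.5 and 19.0 CPM with WT-MyoD, and 12.7 and 13.6 CPM with VP64-MyoD. The groups formed 3 separate steps downward. It fell by 0.61 on the log2 scale with WT-MyoD (edgeR SE 0.08, adjusted p = 1.5e-05) and by 1.09 with VP64-MyoD (edgeR SE 0.09, adjusted p = 1.9e-08). It was also lower in VP64-MyoD than in WT-MyoD cells, with a log2 fold change of -0.47 (edgeR SE 0.09, adjusted p = 0.00025). These libraries do not record strand and the gene DM1-AS is annotated across SIX5, so reads of the antisense RNA cannot be told apart from reads of SIX5.

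**Figure D2:**
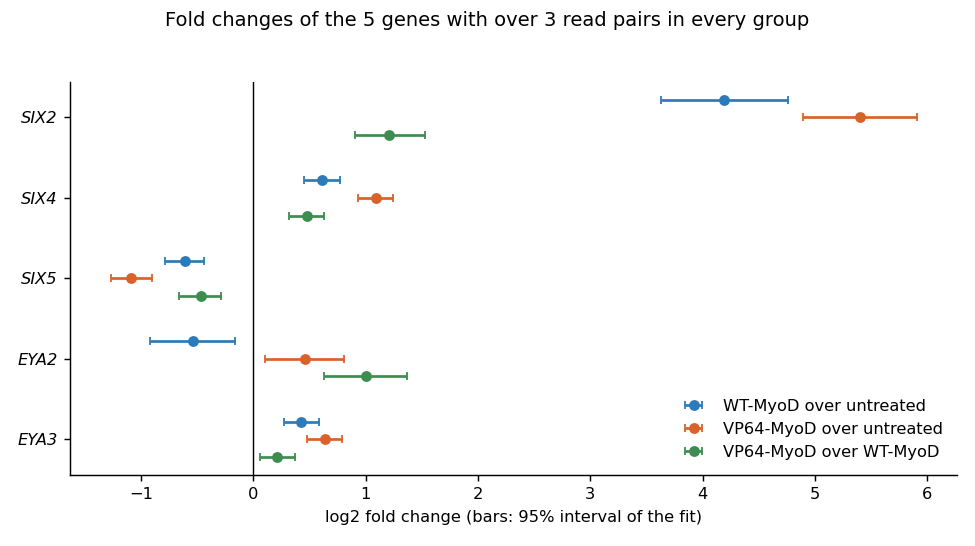
Log2 fold changes (horizontal axis) of the 5 genes with more than 3 read pairs in every group, in the 3 comparisons, with bars for the 95% interval of the edgeR fit. SIX5 is left of 0 in each comparison, SIX2, SIX4 and EYA3 are right of 0 in each, and EYA2 is left of 0 with WT-MyoD over untreated (-0.54) and right of 0 with VP64-MyoD over untreated (0.46).

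Among the coactivators, EYA3, a widely expressed member of its family, had the highest level per kilobase of transcript in each group. EYA3 (NM_001990) stood at 24.3 and 25.3 CPM in untreated cells, 32.8 and 33.7 CPM with WT-MyoD, and 37.6 and 39.5 CPM with VP64-MyoD. Its steps were in the order of those of SIX4 but smaller. The log2 fold change over untreated was 0.42 (edgeR SE 0.07, adjusted p = 0.00018) with WT-MyoD. With VP64-MyoD it was 0.64 (edgeR SE 0.07, adjusted p = 1.7e-06). The step between the forms was 0.21 (edgeR SE 0.07, adjusted p = 0.020), and this call did not hold without VP64-MyoD replicate 1 (adjusted p = 0.052) or replicate 2 (0.17).

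EYA2, a coactivator also found in muscle, was the only member called in opposite directions against untreated cells with the MyoD forms. Its level was 3.09 and 2.77 CPM in untreated cells, 2.12 and 1.90 CPM with WT-MyoD, and 4.00 and 4.05 CPM with VP64-MyoD. Untreated libraries lay between the other groups, with no overlap. The direct comparison gave a log2 fold change of 1.00 for VP64-MyoD over WT-MyoD (edgeR SE 0.17, adjusted p = 0.00015), and this call held in each of the 15 alternatives run. Against untreated cells the differences were smaller, at -0.54 with WT-MyoD (edgeR SE 0.18, adjusted p = 0.021) and 0.46 with VP64-MyoD (edgeR SE 0.17, adjusted p = 0.026). The WT-MyoD call did not hold without untreated replicate 1 (edgeR adjusted p = 0.12) or WT-MyoD replicate 2 (0.084). The VP64-MyoD call did not hold without untreated replicate 2 (edgeR adjusted p = 0.13), VP64-MyoD replicate 1 (0.084) or VP64-MyoD replicate 2 (0.11). EYA2 rests on 39 to 106 read pairs per library. The genes EYA2-AS1, GAPDHP54, RPS2P54 and MIR3616 are annotated across EYA2, and their reads cannot be told apart from its own by strand.

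The counts of EYA2 were spread over 2 transcript rows. NM_005244, of 2702 bases, held between 52.7% and 59.0% of the read pairs of the gene in each library, and NM_172110, of 2465 bases, held the rest. How reads that match both rows were assigned was not examined, so the 2 rows are not independent results. Fitted as rows among 28246 transcripts, both were higher in VP64-MyoD than in WT-MyoD cells. The log2 fold change was 0.95 for NM_005244 (edgeR SE 0.23, adjusted p = 0.0019) and 1.05 for NM_172110 (edgeR SE 0.25, adjusted p = 0.0021). Neither row was called against untreated cells, with edgeR adjusted p of 0.069 and 0.12 for WT-MyoD and 0.12 and 0.070 for VP64-MyoD, in the order of NM_005244 and NM_172110. Of the other members, SIX2, SIX4, SIX5 and EYA3 each have 1 row.

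EYA1, the gene mutated in branchio-oto-renal syndrome, was close to absent except with VP64-MyoD. Over its 4 transcript rows it had 0 and 1 read pairs in the untreated libraries, 3 and 0 in the WT-MyoD libraries, and 12 and 17 in the VP64-MyoD libraries. In CPM these are 0 and 0.0454, 0.106 and 0, and 0.516 and 0.649. Both VP64-MyoD libraries were above all others, while untreated and WT-MyoD libraries overlapped. The ratio of read pairs for VP64-MyoD was 27.5 over untreated (95% counting interval 4.57 to 1125). Over WT-MyoD it was 9.56 (2.96 to 49.1). The filter kept EYA1 for its VP64-MyoD counts alone, so no edgeR p is given for these ratios. No fold is given for WT-MyoD over untreated, where the edgeR adjusted p was 0.45. The VP64-MyoD level is that of few molecules, and the 29 read pairs were spread over all 4 rows. Single libraries moved the fitted log2 values, which depend on the prior count where a group holds no reads. Over untreated, 4.62 became 3.61 without untreated replicate 1 and 7.85 without untreated replicate 2. Over WT-MyoD, 3.22 became 7.78 without WT-MyoD replicate 1 and 2.42 without WT-MyoD replicate 2. RefSeq annotates 4 other genes across EYA1, and their reads cannot be told apart from its own by strand.

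EYA4, a family member known from hereditary deafness and cardiomyopathy, was at or under the detection floor in every library. Its only reads were 3 read pairs in WT-MyoD replicate 2 (0.146 CPM), with 0 in the other libraries. A count of 0 allows up to 3 read pairs, which is 0.106 to 0.146 CPM depending on the library. Intervals and floors cover counting error only.

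Levels of different genes were compared only per kilobase of transcript, as CPM per kilobase with lengths from GENCODE release 29. In untreated cells SIX5 was the highest at 8.41 ± 0.17 CPM per kilobase (SD, n = 2), followed by SIX4 at 4.53 ± 0.21 and EYA3 at 4.08 ± 0.13. EYA2 followed at 1.13 ± 0.086, and SIX2 at 0.0776 ± 0.0068. SIX4 and EYA3 were neighbours that differed little, with libraries at 4.68 and 4.38 against 3.99 and 4.17.

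The order changed with MyoD. With WT-MyoD, SIX4 was the highest at 6.92 ± 0.42 CPM per kilobase (SD, n = 2). SIX5 at 5.50 ± 0.30 and EYA3 at 5.47 ± 0.11 came next and overlapped, followed by SIX2 at 1.43 ± 0.086 and EYA2 at 0.777 ± 0.061. With VP64-MyoD, the order was SIX4 at 9.62 ± 0.38, EYA3 at 6.33 ± 0.22, SIX5 at 3.95 ± 0.19, SIX2 at 3.32 ± 0.085 and EYA2 at 1.56 ± 0.013 CPM per kilobase (SD, n = 2). SIX5 thus moved from the top of the order in untreated cells to the third place with VP64-MyoD. EYA1 was under 0.2 CPM per kilobase in every library.

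Summed over SIX2, SIX4 and SIX5, the level per kilobase was 13.0 ± 0.032 in untreated, 13.8 ± 0.64 in WT-MyoD and 16.9 ± 0.11 in VP64-MyoD cells (SD, n = 2). The makeup of this sum changed more than its size. SIX5 held 64.6 ± 1.5% of it in untreated, 39.7 ± 0.37% in WT-MyoD and 23.4 ± 1.3% in VP64-MyoD cells. SIX4 held 34.8 ± 1.5%, 50.0 ± 0.73% and 56.9 ± 1.9%, and SIX2 held 0.596 ± 0.054%, 10.3 ± 1.1% and 19.6 ± 0.63% in the same order. The EYA sum was 5.22 ± 0.048, 6.27 ± 0.053 and 8.04 ± 0.26 CPM per kilobase. EYA3 held most of it in every library, with 78.1 ± 1.7%, 87.2 ± 1.0% and 78.8 ± 0.22%. The share of EYA2 was 21.7 ± 1.9%, 12.4 ± 1.1% and 19.4 ± 0.46%, lowest with WT-MyoD. These sums cover the named genes only and were not tested.

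**Figure D3:**
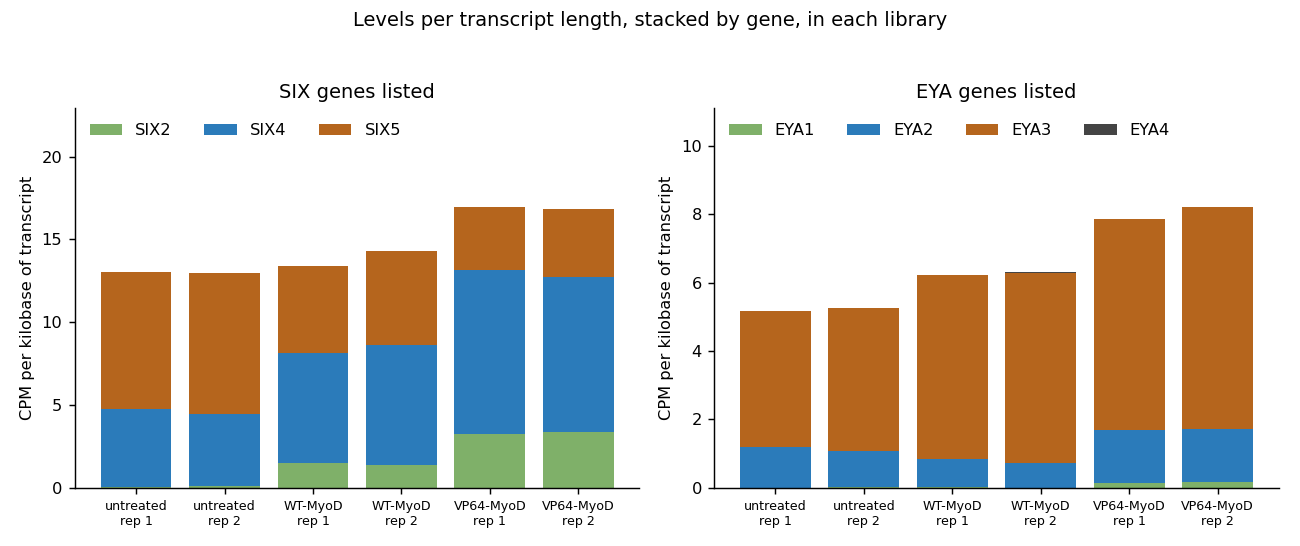
Stacked CPM per kilobase of transcript (vertical axes from 0) for the SIX-family genes (left) and EYA genes (right) in each of the 6 libraries. SIX5 is the larger part of the SIX-family bars in untreated cells (64.6%) and SIX4 is with VP64-MyoD (56.9%), while EYA3 is the larger part of every EYA bar.

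SIX5 was set beside the genes next to it. In the RefSeq gene table the order along the chromosome is SIX5, DMPK, DMWD, RSPH6A, SYMPK and FOXA3. Against untreated cells, DMPK, the protein kinase gene whose repeat expansion causes myotonic dystrophy, moved opposite to SIX5. Between the forms both genes had negative log2 fold changes. DMPK stood at 45.7 and 47.3 CPM in untreated cells, 256.6 and 260.5 CPM with WT-MyoD, and 231.1 and 203.3 CPM with VP64-MyoD. It rose by a log2 fold change of 2.47 with WT-MyoD (edgeR SE 0.07, adjusted p = 1.7e-13) and 2.22 with VP64-MyoD (edgeR SE 0.07, adjusted p = 3.3e-13). Between the forms it was -0.25 (edgeR SE 0.07, adjusted p = 0.0051), a call that did not hold without VP64-MyoD replicate 2 (adjusted p = 0.15).

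The further neighbours had smaller fold changes than SIX5. DMWD, a WD-repeat protein gene, stood at 45.8 and 47.6 CPM in untreated cells, 40.6 and 43.3 CPM with WT-MyoD, and 38.5 and 35.3 CPM with VP64-MyoD. Its libraries did not overlap between groups. DMWD had a log2 fold change over untreated of -0.16 (edgeR adjusted p = 0.089) with WT-MyoD and -0.34 (edgeR adjusted p = 0.00073) with VP64-MyoD. SYMPK, a scaffold of the RNA 3′ end processing machinery, ran from 88.4 to 120.4 CPM over the libraries and had -0.20 (edgeR adjusted p = 0.025) and -0.37 (edgeR adjusted p = 0.00023). The WT-MyoD call of SYMPK did not hold without untreated replicate 1 (edgeR adjusted p = 0.17), untreated replicate 2 (0.070) or WT-MyoD replicate 1 (0.10). Both were also called lower in VP64-MyoD than in WT-MyoD cells, DMWD by -0.18 (edgeR adjusted p = 0.042) and SYMPK by -0.17 (edgeR adjusted p = 0.049). Those calls were lost in 6 (DMWD) and 12 (SYMPK) of 15 alternatives. RSPH6A had no count, and FOXA3 was under the filter.

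**Figure D4:**
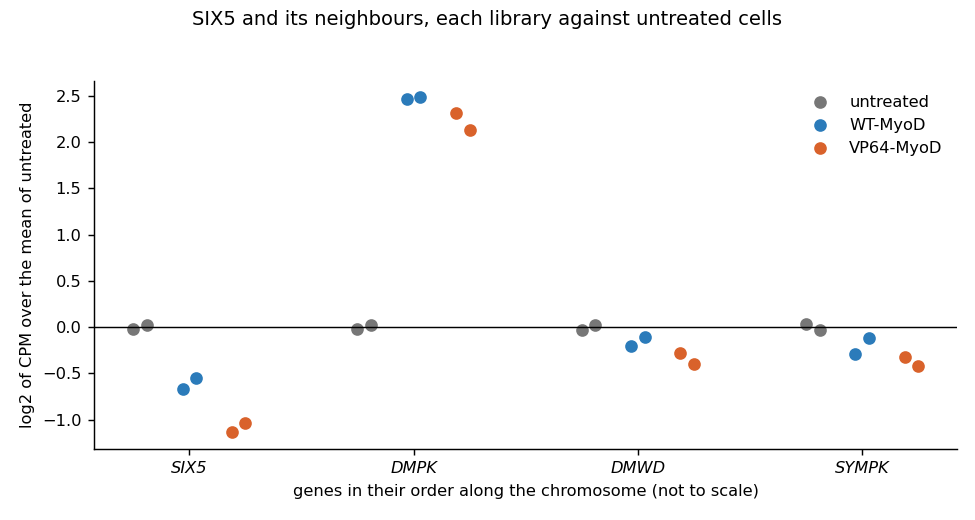
Log2 of CPM over the mean of the untreated libraries (vertical axis) for SIX5, DMPK, DMWD and SYMPK in chromosomal order (horizontal axis, not to scale), with a point per library. SIX5 lies under 0 and DMPK above 0 in all 4 MyoD libraries, and DMWD and SYMPK lie nearer to 0.

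The partners and relatives list held 13 genes, of which 9 were tested. SIX6, DACH2 and PAX7 had no count, and SIX3 was under the filter with 1 to 3 read pairs per library. DACH1 passed only through its counts with VP64-MyoD and is left out of the following counts over the other 8. With WT-MyoD 2 were higher and 4 lower than untreated (75.0% called, against 48.5% of all genes), with a median log2 fold change of -0.28 (0.00 over all genes). Of those 4, SKI lost its call in 2 of 15 alternatives, DESeq2 among them (adjusted p = 0.087). Its log2 values ran from -0.61 to -0.17. With VP64-MyoD 1 was higher and 4 lower than untreated (62.5% called, against 63.6% of all genes), with a median of -0.29 against 0.03. Among these 4, PAX3 lost its call in 2 of 15 alternatives. Between the forms 3 were higher and 2 lower with VP64-MyoD (62.5% called, against 57.1%), with a median of -0.10 against 0.02. Of those 3, SOBP and TLE3 were not called without WT-MyoD replicate 1 and without VP64-MyoD replicate 2, TLE3 not without VP64-MyoD replicate 1, and SOBP not with DESeq2. The shares called lie near those of all genes for VP64-MyoD, and the called genes moved in both directions.

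Among the corepressors, TLE1, a Groucho protein, was 13.8 and 14.3 CPM in untreated cells, 30.6 and 30.8 CPM with WT-MyoD, and 7.27 and 7.87 CPM with VP64-MyoD. It was higher than untreated with WT-MyoD (log2 fold change 1.13, edgeR SE 0.08, adjusted p = 1.4e-08) and lower with VP64-MyoD (-0.89, edgeR SE 0.09, adjusted p = 5.7e-07). The direct difference between the forms was -2.02 (edgeR SE 0.09, adjusted p = 3.3e-11).

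TLE2, a further Groucho protein, was lower than untreated with both forms, by -1.14 (edgeR SE 0.10, adjusted p = 8.6e-08) and -1.36 (edgeR SE 0.10, adjusted p = 8.8e-09). SKIL, a relative of the SKI corepressor, stood at 115.8 and 130.5 CPM in untreated cells, 48.0 and 56.4 CPM with WT-MyoD, and 114.4 and 121.6 CPM with VP64-MyoD. It was lower with WT-MyoD than untreated (-1.24, edgeR SE 0.08, adjusted p = 2.9e-09), and higher in VP64-MyoD than in WT-MyoD cells (1.18, edgeR SE 0.08, adjusted p = 6.6e-09). For VP64-MyoD over untreated the value was -0.06 (edgeR adjusted p = 0.53). SKI itself fell by 1.07 on the log2 scale from untreated to VP64-MyoD cells (edgeR SE 0.11, adjusted p = 2.5e-07). It was also lower than with WT-MyoD, by -0.69 (edgeR SE 0.10, adjusted p = 3.9e-05).

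SOBP, a nuclear protein that binds SIX-family proteins, rose with both forms. SOBP stood at 1.72 and 1.64 CPM in untreated cells, 2.65 and 3.16 CPM with WT-MyoD, and 4.04 and 4.28 CPM with VP64-MyoD. Its log2 fold change over untreated was 0.78 (edgeR SE 0.19, adjusted p = 0.0030) and 1.31 (edgeR SE 0.18, adjusted p = 1.4e-05). DACH1, a corepressor of the network, had no count in the untreated and WT-MyoD libraries and 15 and 8 read pairs with VP64-MyoD (0.645 and 0.306 CPM). Its level with VP64-MyoD was at least 7.28-fold higher than in untreated cells and at least 7.59-fold higher than with WT-MyoD, counting each group at 0 as if it held 3 read pairs in all. The filter kept DACH1 for its VP64-MyoD counts alone, so no edgeR p is given for it, and DESeq2 did not call it (adjusted p = 0.21 and 0.22).

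The list of genes described as SIX-family targets in muscle held 18 genes, of which 15 were tested. MYF5 and MYF6 had no count, and ACTN3 was under the filter. PVALB, TNNI2 and CCNA1 passed only through their counts with VP64-MyoD and are left out of the following counts over the other 12. With WT-MyoD 10 were higher and 0 lower than untreated (83.3% called, against 48.5% of all genes and 26% higher), and ALDOA and GDNF were not called by edgeR. The count of 0 was 1 (ALDOA) at an unadjusted p under 0.05, by limma-voom, without a filter on low counts and without WT-MyoD replicate 1, and stayed 0 by DESeq2. With VP64-MyoD all 12 were higher than untreated, where 63.6% of all genes were called and 33.3% were higher. Between the forms 9 were higher and 2 lower with VP64-MyoD (91.7% called, against 57.1% of all genes and 28.7% higher). The median log2 fold changes, with MYOD1 over untreated at its bound, were 3.71, 5.91 and 1.66. The medians of all genes were 0.00, 0.03 and 0.02. Many of these genes are also direct MyoD targets or muscle genes, and the part of SIX-family proteins was not tested.

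MYOG, the myogenic factor whose promoter holds a MEF3 site, stood at 0.321 and 0.227 CPM in untreated cells, 38.6 and 35.6 CPM with WT-MyoD, and 280.8 and 239.6 CPM with VP64-MyoD. Its log2 fold change between the forms was 2.81 (edgeR SE 0.08, adjusted p = 3.3e-13). CKM, the muscle creatine kinase, stood at 0.160 and 0.182, 16.2 and 12.5, and 167.9 and 144.6 CPM in the same order. Both rose with each form in steps that did not overlap.

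TNNT3, a fast troponin T, had 1 read pair in untreated cells in all, and its ratio of read pairs for VP64-MyoD over WT-MyoD was 24.1 (95% counting interval 21.1 to 27.7). ATP2A1, the fast-fibre calcium pump, was higher in VP64-MyoD than in WT-MyoD cells by a log2 fold change of 4.36 (edgeR SE 0.11, adjusted p = 7.8e-14). PVALB, the calcium buffer of fast fibres, had no count in untreated and WT-MyoD libraries and was at least 52.9-fold higher with VP64-MyoD than untreated. CCNA1, a cyclin gene, was at least 34.2-fold and TNNI2, a fast troponin I, at least 24.4-fold higher with VP64-MyoD than in untreated cells, where both had no count. The WT-MyoD call of TNNI2 rests on 3 read pairs and was lost in 8 of 14 alternatives. MYOD1 had no count in untreated cells and was at least 54.1-fold higher with WT-MyoD and at least 108.9-fold higher with VP64-MyoD, although reads of the mouse transgene counted on the human gene were not told apart.

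The 2 genes of the list that were lower in VP64-MyoD than in WT-MyoD cells were SLC12A2, an ion cotransporter, and CCND1, cyclin D1. SLC12A2 stood at 75.1 and 80.2 CPM in untreated cells, 138.6 and 149.7 CPM with WT-MyoD, and 104.5 and 107.6 CPM with VP64-MyoD. CCND1 stood at 684.3 and 676.8, 1318.8 and 1733.3, and 953.0 and 890.0 CPM in the same order. Both were highest with WT-MyoD. Their log2 fold changes between the forms were -0.44 (edgeR SE 0.06, adjusted p = 2.9e-05) for SLC12A2 and -0.73 (edgeR SE 0.10, adjusted p = 1.3e-05) for CCND1.

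**Figure D5:**
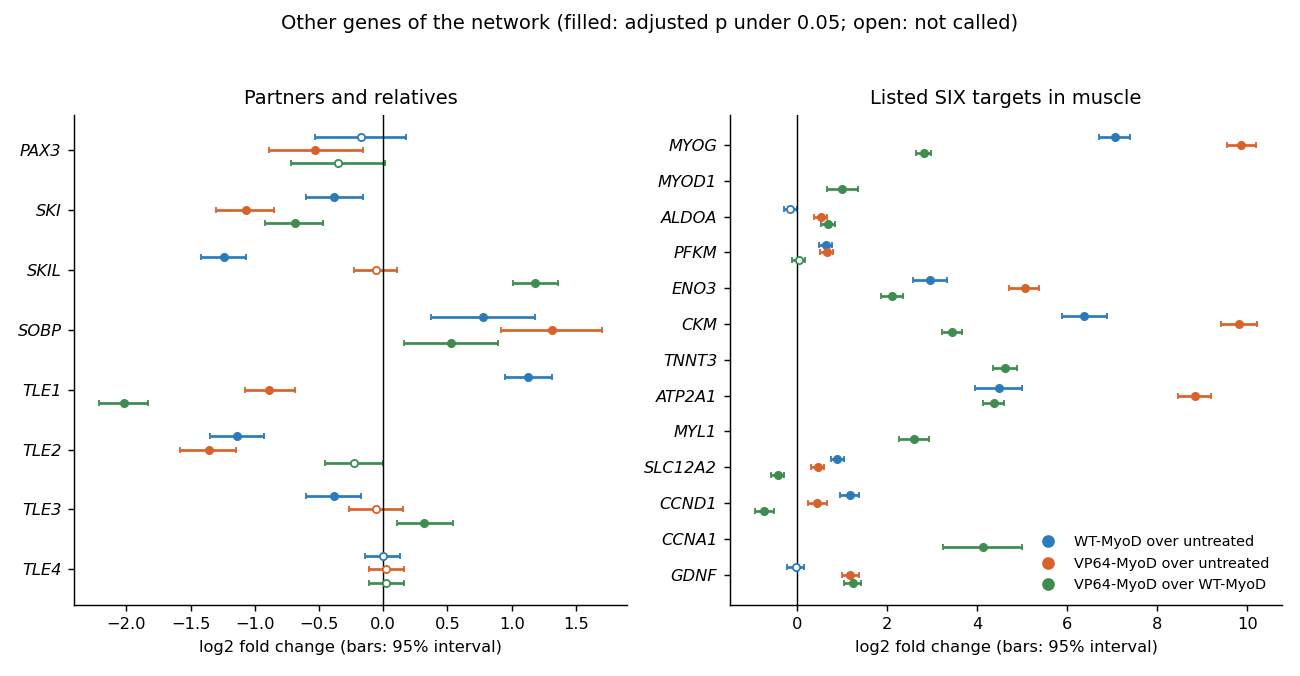
Log2 fold changes (horizontal axes) in the 3 comparisons for the tested partners and relatives (left) and the listed SIX-family targets (right), with bars for 95% intervals, filled points for calls and open points for the rest. Comparisons with 3 or fewer read pairs in a group are left out; TLE1 lies on opposite sides of 0 for the MyoD forms, and most targets lie right of 0.

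For SIX2, SIX4, SIX5, EYA2 and EYA3, the genes with the most similar changes across the 6 libraries were sought. They were found among 13063 genes with a mean of at least 1 CPM. Likeness was the root mean square difference of log2(CPM + 0.5) values centred on their mean, so smaller values are closer. For SIX2 the closest were ARHGAP9 (0.09), HAS2 (0.0943) and RSPH4A (0.0946). The untreated mean of SIX2 (0.171 CPM) lies under the added 0.5 CPM, so genes with unlike folds can be close to it. RSPH4A rose from a mean of 0.0829 CPM in untreated cells to 2.55 CPM with WT-MyoD and 6.29 CPM with VP64-MyoD. HAS2, a hyaluronan synthase, rose from a mean of 20.4 CPM in untreated cells to 121.2 CPM with WT-MyoD and 241.3 CPM with VP64-MyoD. For SIX4 they were NCOA1 (0.0203), WDFY2 (0.0476) and PFKP (0.05). NCOA1, a nuclear receptor coactivator, stood at 87.6, 133.3 and 185.5 CPM in the same order.

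For SIX5 the closest genes were STXBP5 (0.0360), OSBPL8 (0.0375) and ID4 (0.0419). ID4, an inhibitor of basic helix-loop-helix factors, fell from 20.1 CPM in untreated cells to 12.6 and 9.22 CPM. For EYA2 they were MORF4L2 (0.0385), MTMR2 (0.0516) and ALDH1B1 (0.0519), all lowest with WT-MyoD. For EYA3 they were HNRNPM (0.0283), FOXJ3 (0.0353) and DR1 (0.0389).

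Of the 7 genes, the authors' deposited table of 3135 transcripts lists 3. It gives log2 fold changes over untreated, for WT-MyoD and VP64-MyoD, of 4.21 and 5.42 for SIX2. The authors' deposited table gives 0.62 and 1.09 for SIX4, and -0.61 and -1.09 for SIX5. In the authors' deposited table no adjusted p exceeded 9.95e-06.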

How the data were processed

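Polyadenylated RNA was sequenced from 6 libraries, 2 per group, made by transposase tagmentation, which keeps no strand, per the labels' protocols. The submitters' processing notes name CASAVA, Bowtie 0.12.9 and DESeq 1.10.1 with the hg19 build. The deposited counts are whole, not normalized, per RefSeq transcript, and all even, a pair of reads adding 2. The authors' deposited table gives a signal per group (a mean of scaled counts), log2 fold changes, fold ratios and adjusted p-values, and entered no test.

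Of 40710 rows, 39324 were named through RefSeq (GRCh38.p14) and 526 through GENCODE 29. A further 859 without a symbol, with 0.601% to 0.743% of a library's counts, entered totals only. Rows were summed per symbol. edgeR 4.0.16 in R 4.3.3 (TMM, filterByExpr with minimum count 10 and total 15, two-sided quasi-likelihood test) was fitted to 6 libraries with 3 residual degrees of freedom. A Benjamini-Hochberg adjusted p under 0.05 was a call. Each standard error was obtained by dividing the absolute log2 change by the root of its F statistic. The fit was tested on simulated data. Replicates differed by more than counting noise (chi-square per degree of freedom 3.49, 13.8 and 6.02 in untreated, WT-MyoD and VP64-MyoD).

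The members and gene lists were chosen with earlier results of these data known. Named were all members, per list and comparison the 4 genes with the smallest adjusted p and those with no count in a group, the 3 most alike genes per called member (those of EYA1 are not reported here), and, after their values were seen, SLC12A2, CCND1, ALDOA, GDNF, TLE3, THY1, VIM and COL1A2. Alternatives were DESeq2 1.42.0, limma-voom (limma 3.58.1), RLE scaling, no filter, at least 1 CPM in 2 libraries, a replicate block, 2 groups alone, halved counts, the top transcript row and leaving out each library.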

Additional observations from a re-analysis of the deposited data

How the results depend on the processing

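Of 263 alternative values for the 6 tested members, 251 kept their direction and side of the threshold, 11 lost a call and 1 changed sign. SIX2, SIX4 and SIX5 kept every call in all 15 alternatives of each comparison. For SIX2 this carries weight only between the forms, since the filter kept it for its counts in the MyoD libraries. The counts over untreated cells below include SIX2. The count of members lower with WT-MyoD than untreated went from 2 to 1 (SIX5 alone) with DESeq2 and with the top transcript row in place of the sum, and ran from 1 to 2 when libraries were left out (1 without untreated replicate 1 and without WT-MyoD replicate 2). The count higher with VP64-MyoD than untreated was 5 with EYA1, which passed the filter only through its VP64-MyoD counts, and 4 without EYA1. With the top transcript row the count was 3 (EYA3, SIX2 and SIX4), where EYA1 was untested and EYA2 not called (edgeR adjusted p = 0.12). EYA2 lost its DESeq2 calls over untreated (adjusted p = 0.056 and 0.081). The EYA1 value for WT-MyoD over untreated changed sign to -3.17 without WT-MyoD replicate 1 (edgeR adjusted p = 0.46), ran up to 4.64 with other libraries left out, and was not called in any alternative. EYA1 could not be tested with at least 1 CPM in 2 libraries.

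Libraries of different groups share only a replicate number. Their deviations correlated by 0.0285, 0.0203 and 0.00426 across 15293 features, and the replicate block gave 3 members higher and 2 lower for WT-MyoD over untreated, 5 and 1 for VP64-MyoD over untreated, and 5 and 1 between the forms, as without it. Each count of 5 includes EYA1, which passed the filter only through its VP64-MyoD counts. The counts higher than untreated also include SIX2, which the filter kept for its counts in the MyoD libraries. Depth limits EYA1 and EYA4, and the untreated level of SIX2.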
